A study of Mus musculus with 12 samples.

Results

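The enzymes that set, copy and remove DNA methylation, and those that methylate lysine 9 of histone H3 (H3K9), were followed in mouse embryonic stem cells from which Thap11 was deleted. Thap11 encodes the transcription factor Ronin. The members were chosen by name: Dnmt1, Uhrf1, Dnmt3a, Dnmt3b, Dnmt3l, Tet1, Tet2, Setdb1, Ehmt1 and Ehmt2. All 10 were read by the array, among 18194 genes in all. They held 25 of its 45101 probe sets, the groups of short probes that each give 1 intensity. A probe set was used where the platform annotation gave it exactly 1 member symbol, and the brightest over all arrays stands for the gene. No gene was left out for a low value.

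Dnmt3a and Dnmt3b place new methyl groups on cytosines of CpG dinucleotides, and Dnmt3l, which has no catalytic activity of its own, stimulates both. Dnmt1 copies methylation onto the new DNA strand after replication and is brought there by Uhrf1, while Tet1 and Tet2 oxidise methylcytosine on the way to its removal. Setdb1 and the partner enzymes Ehmt1 (GLP) and Ehmt2 (G9a) methylate H3K9. In embryonic stem cells both systems are known for silencing retrotransposons and genes of the germline.

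All cells carried Ronin flox/flox, that is, both alleles of Thap11 were flanked by loxP sites, and all received tamoxifen at 0.25 µM. Controls had these alleles alone. Knockout cells also had CreERT2 (Ert2CRE in the labels), a recombinase that enters the nucleus with tamoxifen. RNA was taken on days 1.5, 3 and 6 from cells plated at 100000 per 10 cm2 and split on day 4, with 2 arrays in each of the 6 groups and 12 arrays in all. Because CreERT2 went with the knockout label throughout, loss of Thap11, CreERT2 itself and a difference of cell line cannot be told apart. The labels do not state that a group's arrays had cultures of their own, so the p-values rest on a spread that may be technical. In such bulk samples fewer cells of a type and less RNA per cell cannot be told apart.

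The deletion was checked first: Thap11 was lower in knockout cells by log2 differences of -1.84 on day 1.5, -3.67 on day 3 and -4.72 on day 6. Over all genes, r within a group was 0.998 to 0.999. All 10 stem cell markers read at least 1812 on every array, with Pou5f1 between 10980 and 12600. Of 12 fibroblast markers, which feeder cells would bring, the summed intensity lay between 510.2 and 717.4 over the arrays, and Col3a1 stayed between 8.49 and 13.24. Summed intensities of 10 extraembryonic endoderm markers were 8080 to 8366 in controls of day 1.5, 4463 to 4596 in those of day 3 and 8315 to 8376 in those of day 6. In knockout cells they were 5898 to 6020, 5133 to 5275 and 8725 to 8865.

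The control arrays of day 3 stood apart from the other controls, and the members took part in this. Adjusted p-values here and throughout come from limma with Benjamini-Hochberg adjustment over all genes, and a gene was called when it was under 0.05. Between days 1.5 and 6 the controls differed in 1.57% of genes and in 1 of 10 members, Dnmt3l. Between days 1.5 and 3 they differed in 27.3% of genes and in 6 of 10 members, all lower on day 3. Between days 3 and 6 the figures were 27.5% of genes and 5 of 10 members, all higher on day 6. Results of day 3 are therefore given also with the averaged controls of days 1.5 and 6 as the reference. That reference compares cells of different days. A change with time that both genotypes share thus enters those differences beside any difference of genotype.

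The bases ahead of the gene are shown for 4 members whose intensity differed between genotypes on day 6, since DNA methylation acts on the CpGs in such stretches and the array itself says nothing of methylation. Dnmt3b, Uhrf1 and Setdb1 were lower in knockout cells then and Dnmt3l was higher. The letters are RefSeq's on GRCm38.p6, 5′ to 3′ on the strand of the gene, and capitals mark each CpG.
Dnmt3b: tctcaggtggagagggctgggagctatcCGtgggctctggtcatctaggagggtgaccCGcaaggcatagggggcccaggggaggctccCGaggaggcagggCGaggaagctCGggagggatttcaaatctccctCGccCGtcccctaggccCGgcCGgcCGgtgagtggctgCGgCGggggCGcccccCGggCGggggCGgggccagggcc
Uhrf1: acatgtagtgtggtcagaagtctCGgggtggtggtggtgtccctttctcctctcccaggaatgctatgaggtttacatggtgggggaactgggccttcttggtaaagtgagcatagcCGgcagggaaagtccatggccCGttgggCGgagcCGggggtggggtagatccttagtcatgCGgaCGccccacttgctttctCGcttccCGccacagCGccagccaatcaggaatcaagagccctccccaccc
Setdb1: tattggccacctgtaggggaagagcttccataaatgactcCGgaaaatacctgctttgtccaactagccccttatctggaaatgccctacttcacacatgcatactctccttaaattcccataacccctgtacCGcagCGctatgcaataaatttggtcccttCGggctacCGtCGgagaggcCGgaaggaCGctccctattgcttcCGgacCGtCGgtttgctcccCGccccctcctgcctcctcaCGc
Dnmt3l: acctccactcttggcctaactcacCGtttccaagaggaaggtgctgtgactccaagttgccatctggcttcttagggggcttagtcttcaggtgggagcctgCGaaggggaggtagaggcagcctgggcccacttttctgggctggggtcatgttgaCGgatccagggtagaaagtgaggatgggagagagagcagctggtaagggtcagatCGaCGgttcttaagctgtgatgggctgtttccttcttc
The Dnmt3b stretch is chr2:153649199-153649410 on the plus strand and held 16 CpGs in 212 bases. That of Uhrf1, chr17:56303087-56303336 on the plus strand, held 10 CpGs in 250 bases, and the window at the second Uhrf1 start held 30. Setdb1, on the minus strand at chr3:95357203-95357452, had 13 in the same length. Dnmt3l, on the plus strand at chr10:78042037-78042286, had 5. Other starts of Dnmt3l are listed inside the gene, and which start these cells use was not tested.

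Over all 18 windows that RefSeq listed for the 10 members, the 250 bases before the start held between 2 CpGs (a start of Dnmt1) and 51 (Tet2), against a median of 6 over 32851 windows of 27025 genes. The 3 windows of Dnmt3l held 5, 4 and 3, and those of Dnmt3a held 38, 40 and 15. In windows of 300 bases that run to 50 past the start, searched on both strands, the long motif named for Ronin had no match at any member, against 2.27% of all windows. The GC box GGGCGG matched in 15 of the 18 windows, at all 10 members, against 35.7% of all windows. The E2F motif TTTGGCGC matched once, 33 bases past a start of Dnmt1, against 0.514% of windows. A short Ronin motif (TACANNTCC) and the E2F motif TTTCCCGC had no match at any member, against 4.43% and 1.07% of windows. A match is a run of letters and no binding site, and its absence says only that these letters are not in the window.

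**Figure D1:**
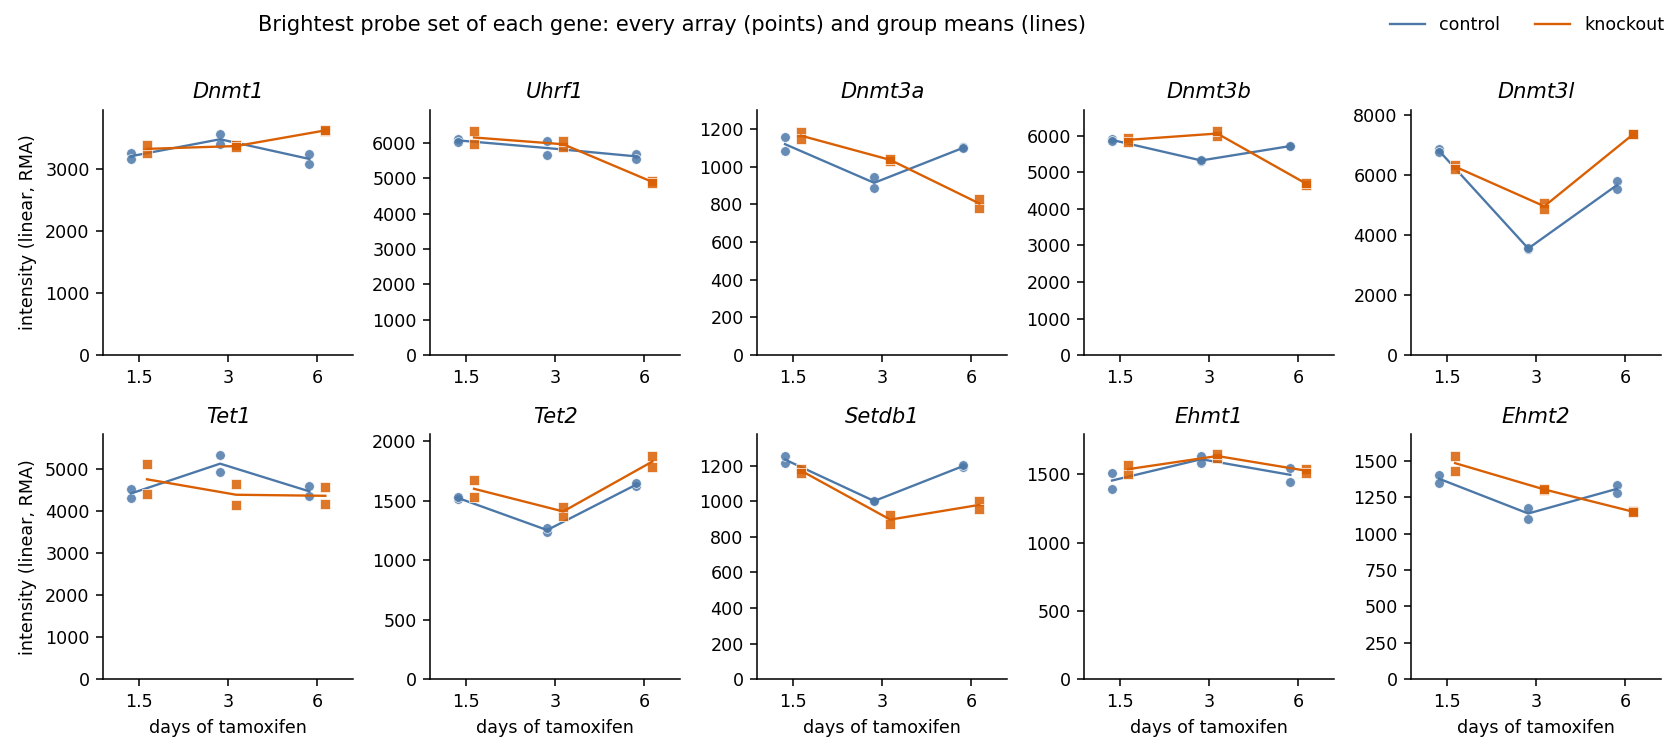
Intensity (linear scale, from 0) of the brightest probe set of each of the 10 genes against days of tamoxifen; points are single arrays, 2 per group, and lines join group means. By day 6 the knockout arrays of Dnmt3a, Dnmt3b, Setdb1, Uhrf1 and Ehmt2 lie below the control arrays and those of Dnmt3l, Dnmt1 and Tet2 above, while Dnmt3l of the day 3 controls lies at 3532 and 3568.

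Knockout and control cells were then compared on each day, the question of the study being what changes when Ronin is lost. On day 1.5 no member passed the threshold in limma, against 9.91% of all genes (5.93% higher and 3.98% lower). At an unadjusted p under 0.05 there was 1, Dnmt3l, with a log2 difference of -0.12 (adjusted p = 0.19). The share of all genes at that looser threshold is not given here. On day 3, 3 of 10 members were higher (13.3% of all genes) and 0 lower (10.0%), against 23.4% called in either direction. On day 6, 2 of 10 were higher (17.2% of all genes) and 5 lower (15.3%), against 32.5% in either direction. The median log2 difference of the members on day 6 was -0.11, beside -0.0013 over all genes. On that day the knockout and control arrays of 8 of 10 members did not overlap, 3 above and 5 below, as was so for 65.1% of all genes. On day 1.5, 7 of 10 extraembryonic endoderm markers were lower in knockout cells and 0 higher, beside 3.98% and 5.93% of all genes. Of the marker lists, 3 of 12 fibroblast markers fell on day 6 (sums of 633.0 to 717.4 in controls and 527.9 to 528.1 in knockout cells) and 2 of 10 extraembryonic endoderm markers rose and 4 fell, and their part in the result was not tested.

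The de novo enzymes moved in opposite directions from their partner by day 6: Dnmt3a and Dnmt3b fell while Dnmt3l rose. Dnmt3a read 1156 and 1082 in control arrays of day 1.5 and 1184 and 1144 in knockout arrays, 943.7 and 883.8 against 1032 and 1039 on day 3, and 1103 and 1097 against 780.7 and 827.3 on day 6. The knockout arrays of day 6 were the lowest of all 12, and they overlapped no other group. The log2 difference on day 6 was -0.45 (SE 0.059, adjusted p = 0.00036), or 73.1% of control. On day 3 the knockout arrays lay above the controls, with a log2 difference of 0.18 that missed the threshold (adjusted p = 0.054). Against the controls of days 1.5 and 6 that difference was -0.099 (adjusted p = 0.19).

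Dnmt3b, the other de novo enzyme and abundant in the early embryo, gave 5918 and 5865 in controls and 5946 and 5839 in knockout cells on day 1.5. On day 3 it gave 5324 and 5334 against 5992 and 6141, and on day 6 it gave 5731 and 5717 against 4659 and 4720. The genotypes thus overlapped on day 1.5, knockout arrays were the higher on day 3 and the lower on day 6. Log2 differences were 0.00014, 0.19 (adjusted p = 0.016) and -0.29 (SE 0.045, adjusted p = 0.0011) in turn. On day 6 the level was 81.9% of control. The rise on day 3 was not past the threshold against the other controls (0.063, adjusted p = 0.27), with only the arrays of that day in the fit, or without replicate 2 of the knockout cells.

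Dnmt3l had the widest span of group means of the 10 members, 1.05 on the log2 scale. It read 6854 and 6761 in controls of day 1.5, 3532 and 3568 in those of day 3, and 5804 and 5543 in those of day 6. Knockout arrays read 6340 and 6212, then 5060 and 4855, then 7357 and 7369. No group overlapped another, and the order from the top was knockout day 6, control day 1.5, knockout day 1.5, control day 6, knockout day 3 and control day 3. On day 6 the knockout level was 1.30 times the control level (log2 difference 0.38, SE 0.049, adjusted p = 0.00038), and on day 3 it was 1.40 times (0.48, adjusted p = 0.00015). Against the controls of days 1.5 and 6, however, the knockout cells of day 3 were lower, by -0.33 (adjusted p = 0.00067), so the direction on day 3 depends on the controls. Dnmt3l was read by a single probe set, whose suffix (_s_at) marks probes shared with other transcripts.

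The maintenance pair also moved apart by day 6. By the brightest probe sets the differences were smaller than those of the de novo enzymes, a ranking that was not tested and that the second Uhrf1 probe set does not keep. Dnmt1 read 3266 and 3161 in controls and 3265 and 3399 in knockout cells on day 1.5, 3565 and 3410 against 3390 and 3365 on day 3, and 3089 and 3249 against 3621 and 3640 on day 6. The knockout arrays of day 6 lay above every other array. The log2 difference of that day was 0.20 (SE 0.052, adjusted p = 0.018), and the intervals of days 1.5 and 3 ran from -0.066 to 0.17 and from -0.16 to 0.073. The call was lost under 6 of 21 alternatives, among them leaving out replicate 1 of the day 6 controls or either knockout array of that day. It was also lost with the brightest probe set free of a shared-probe suffix, whereas the one used here has the suffix _x_at, for probes that can match other transcripts.

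Uhrf1, which reads methylation on 1 strand and recruits Dnmt1, read 6121 and 6027 in controls and 5965 and 6348 in knockout cells on day 1.5. On day 3 it read 5672 and 6043 against 5876 and 6054, and on day 6 it read 5684 and 5559 against 4927 and 4869. Genotypes overlapped on both earlier days, and the knockout arrays of day 6 were the lowest of the 12. Uhrf1 fell to 87.1% of control on day 6 (log2 difference -0.20, SE 0.055, adjusted p = 0.021), a call that was lost when any 1 of the 4 arrays of that day was left out. Its dimmer probe set, given further on, fell by more.

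Neither Tet gene passed the threshold on any day by its brightest probe set. Tet1, the main Tet enzyme of these cells together with Tet2, read 4320 and 4533 in controls and 5123 and 4406 in knockout cells on day 1.5, 4928 and 5346 against 4146 and 4647 on day 3, and 4596 and 4359 against 4574 and 4169 on day 6. On day 3 the knockout arrays lay below the controls, and on the other days the genotypes overlapped. The log2 difference of day 6 was -0.036, with an interval from -0.24 to 0.17, which does not show that the levels were alike. Averaged over its probe sets, Tet1 was lower on day 3 (-0.37, adjusted p = 0.0066) and day 6 (-0.29, adjusted p = 0.015). Tet2 read 1515 and 1533 against 1672 and 1530 on day 1.5, 1237 and 1271 against 1374 and 1447 on day 3, and 1624 and 1649 against 1875 and 1785 on day 6. The knockout arrays of Tet2 were above the controls on days 3 and 6, by 0.17 (adjusted p = 0.072) and 0.16 (adjusted p = 0.069) on the log2 scale. Against the controls of days 1.5 and 6 the Tet2 difference of day 3 was -0.16 (adjusted p = 0.045).

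Of the H3K9 methyltransferases, Setdb1 and Ehmt2 were lower in knockout cells on day 6 and Ehmt1 was not called on any day. Setdb1, which trimethylates H3K9 at silenced repeats, read 1213 and 1255 in controls and 1182 and 1161 in knockout cells on day 1.5, 1003 and 999.1 against 924.5 and 869.3 on day 3, and 1191 and 1205 against 1001 and 958.0 on day 6. It was the member whose knockout arrays lay below the controls on all 3 days without overlap. The log2 differences were -0.074 (adjusted p = 0.46), -0.16 (adjusted p = 0.058) and -0.29 (SE 0.052, adjusted p = 0.0024), the last equal to 81.8% of control. Against the controls of days 1.5 and 6, Setdb1 on day 3 was lower by -0.44 (adjusted p = 0.00017).

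Ehmt2 read 1403 and 1349 in controls and 1431 and 1535 in knockout cells on day 1.5, 1175 and 1100 against 1301 and 1304 on day 3, and 1336 and 1279 against 1152 and 1146 on day 6. Knockout arrays were thus the higher on days 1.5 and 3 and the lower on day 6. The difference was 0.11 (adjusted p = 0.32), 0.20 (adjusted p = 0.038) and -0.19 (SE 0.058, adjusted p = 0.036) in turn. The call of day 6 was lost when any 1 of the 4 arrays of the day was left out, and the mean of both Ehmt2 probe sets gave 0.015. That of day 3 was lost under 12 of 22 alternatives, and the sign turned against the other controls (-0.042). Ehmt1, its partner, read 1514 and 1397 against 1506 and 1571, then 1637 and 1586 against 1621 and 1649, then 1546 and 1448 against 1540 and 1514. Its groups overlapped on every day, and the interval of the day 6 difference ran from -0.11 to 0.16.

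**Figure D2:**
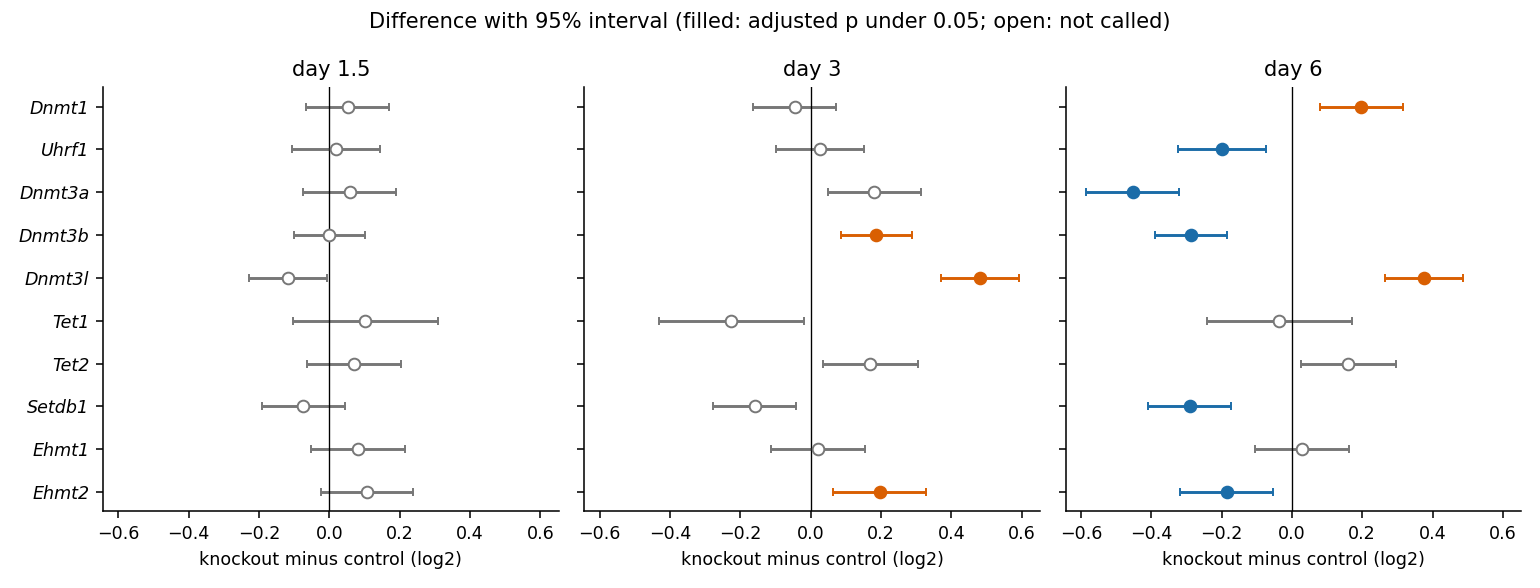
Knockout minus control of the 10 genes (log2, horizontal axis) on each day, with 95% intervals; filled points had a limma adjusted p under 0.05. No point is filled on day 1.5, and Dnmt3a at -0.45 and Dnmt3l at 0.38 are farthest from 0 on day 6.

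The effect itself was compared between days, which tests whether a member responded differently as time went on. From day 1.5 to day 3 it differed for 1 of 10 members (15.0% of all genes), from day 3 to day 6 for 3 (16.4%), and from day 1.5 to day 6 for 4 (19.3%). From day 1.5 to day 6 the effect on Dnmt3a went down by -0.51 on the log2 scale (adjusted p = 0.0028), that on Dnmt3b by -0.29 (0.013) and that on Ehmt2 by -0.29 (0.035), while that on Dnmt3l went up by 0.49 (0.0013). The group means in these 4 contrasts hold no array of day 3, whose arrays enter only the shared estimate of the spread. That of Ehmt2 lost its call under 10 of 21 alternatives, and averaged over its probe sets it was -0.017. The changes from day 3 to day 6 were -0.63 for Dnmt3a, -0.47 for Dnmt3b and -0.38 for Ehmt2, and Dnmt3l changed by 0.60 from day 1.5 to day 3. Without replicate 1 of the day 6 knockout cells 2 members were called from day 1.5 to day 6. For Setdb1 no change of the effect between days passed (day 1.5 to day 6, -0.22, adjusted p = 0.073).

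**Figure D3:**
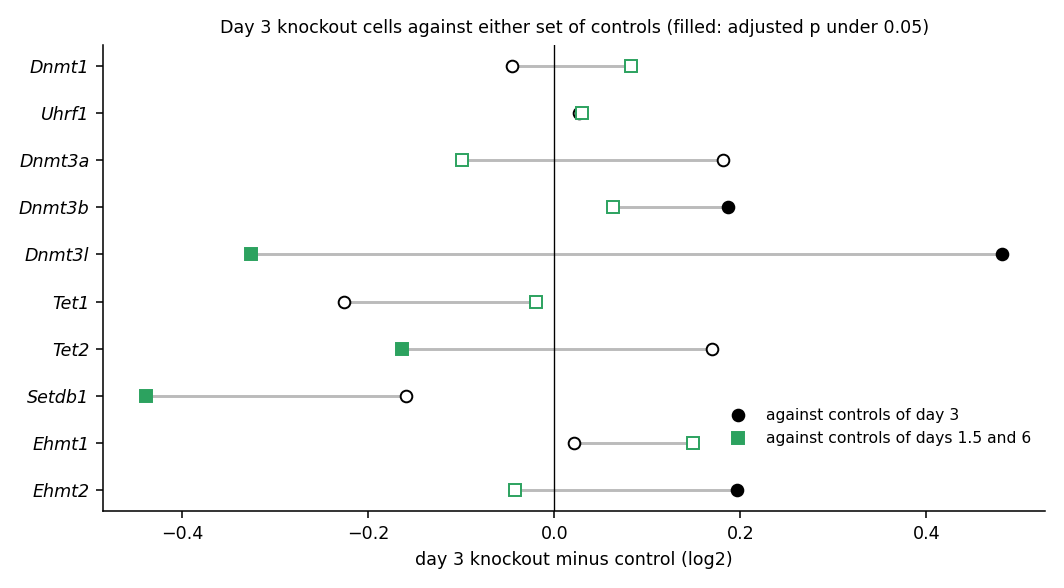
Day 3 knockout cells minus control (log2, horizontal axis) for each gene, against the controls of the same day (circles) or those of days 1.5 and 6 averaged (squares); filled symbols had a limma adjusted p under 0.05. Dnmt3l moves from 0.48 to -0.33 and Setdb1 from -0.16 to -0.44.

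The days were next compared within each genotype. In controls, Dnmt3l fell by 0.94 on the log2 scale from day 1.5 to day 3 (adjusted p = 5.5e-06) and rose by 0.68 from day 3 to day 6 (adjusted p = 4.3e-05), ending below its start by -0.26 (adjusted p = 0.037). Setdb1, Dnmt3a, Tet2 and Ehmt2 followed the same course with falls of 0.30, 0.29, 0.28 and 0.28 and rises of 0.26, 0.27, 0.38 and 0.20. Dnmt3b fell by 0.14, a call lost under 16 of 21 alternatives, and its return of 0.10 was not called. The difference of Dnmt3l between days 1.5 and 6 lost its call under 12 of 21. Dnmt1, Uhrf1, Tet1 and Ehmt1 were not called between any days in controls. Averaged over its probe sets, Ehmt2 had the other sign in both steps (0.021 and -0.19) and Dnmt3a in the rise (-0.073). Of the 10 extraembryonic endoderm markers, 9 fell in controls from day 1.5 to day 3 and 0 rose, and their part in the result was not tested.

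In knockout cells 2 of 10 members differed between days 1.5 and 3 (20.6% of all genes): Dnmt3l by -0.34 and Setdb1 by -0.39, both lower on day 3. Between days 3 and 6, 2 rose and 4 fell (33.5% of all genes). Dnmt3l rose by 0.57 and Tet2 by 0.38, beside 0.68 and 0.38 in controls. Uhrf1 (-0.28), Dnmt3a (-0.37), Dnmt3b (-0.37) and Ehmt2 (-0.18) fell, whereas in controls Dnmt3a and Ehmt2 rose at that time and Uhrf1 and Dnmt3b were not called. The fall of Ehmt2 lost its call under 12 of 21 alternatives, and the other 3 falls held in all 21. From day 1.5 to day 6, which leaves day 3 aside, 2 members rose and 5 fell (30.2% of all genes): Dnmt3a changed by -0.53, Ehmt2 by -0.37, Uhrf1 and Dnmt3b by -0.33 each and Setdb1 by -0.26, and Dnmt3l rose by 0.23 and Tet2 by 0.19. The rise of Tet2 lost its call under 9 of 21 alternatives.

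All 25 probe sets were then tested in a fit over the whole array, with adjustment over 45101 probe sets. Knockout and control differed in 0 of 25 on day 1.5 (3.27% of all probe sets called), in 2 higher and 3 lower on day 3 (12.6%), and in 1 higher and 8 lower on day 6 (19.5%). At an unadjusted p under 0.05 in limma there were 3 on day 1.5. The share of all probe sets at that looser threshold is not given here. Of the 2 probe sets of Uhrf1 the brightest did not pass in this fit, and the second (1415811_at) fell on day 6. It read 408.5 and 387.0 in controls and 268.7 and 259.0 in knockout cells, a log2 difference of -0.59 (adjusted p = 0.0028). For Dnmt3b the second probe set (1418351_a_at) read 2656 and 2650 against 1835 and 1933, a difference of -0.49 (adjusted p = 0.0037). On day 3 it was the higher in knockout cells, by 0.31 (adjusted p = 0.049).

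Probe sets of Dnmt3a and Tet1 disagreed among themselves. Of the 5 for Dnmt3a, 2 fell on day 6, the brightest and 1423066_at (815.9 and 752.0 against 533.7 and 504.6; -0.59, adjusted p = 0.0037). The others differed by -0.33 (1423065_at, adjusted p = 0.13), -0.0077 (1423063_at) and -0.048 (1460324_at), so the size of the Dnmt3a fall differed with the probe set, and the place of each in the transcripts was not used here. Between days 3 and 6 in controls the brightest rose by 0.27 while 1423066_at fell by 0.38 and 1460324_at by 0.45. On day 3, where the brightest lay above the controls, 1460324_at was lower in knockout cells (-0.38, adjusted p = 0.032). For Tet1 the brightest was not called, while 1419896_at read 794.5 and 733.4 in controls and 690.9 and 647.2 in knockout cells on day 1.5, 1263 and 1090 against 776.3 and 788.6 on day 3, and 639.2 and 505.2 against 348.5 and 355.9 on day 6. That probe set was the lower in knockout cells on every day without overlap, past the threshold on day 3 (-0.58, adjusted p = 0.0090) and day 6 (-0.69, adjusted p = 0.0023). The other 2 of Tet1 differed by -0.17 (1419897_at) and -0.28 (1429448_s_at) on day 6, neither called.

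The remaining probe sets were dim or not called on day 6. A dim probe set of Setdb1 (1458215_at) fell on day 6, from 63.59 and 67.42 to 45.83 and 40.83 (-0.60, adjusted p = 0.026). The other Setdb1 probe set stayed between 13.04 and 20.57 and the second of Ehmt2 between 34.99 and 64.90 on all arrays, and neither was called. All 3 of Dnmt1 were higher in knockout cells on day 6, by 0.12, 0.20 and 0.13, and none passed over 45101 probe sets. The second of Tet2 differed by 0.39 on day 6 (adjusted p = 0.14). Over time, 7 of 25 differed in controls between days 1.5 and 3 (17.9% of all probe sets), 9 between days 3 and 6 (18.5%), and in knockout cells 12 between days 3 and 6 (21.5%).

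**Figure D4:**
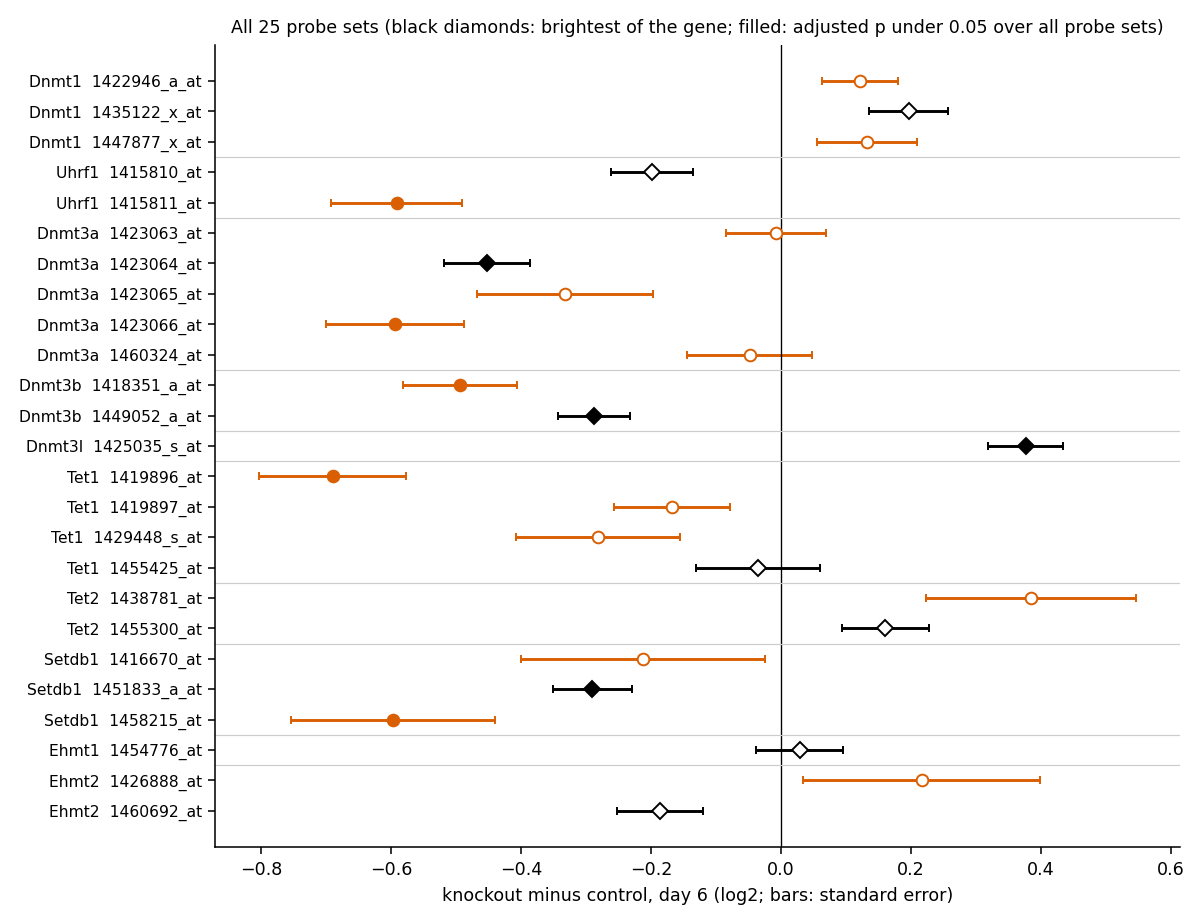
Knockout minus control on day 6 (log2, horizontal axis; bars are standard errors) for the 25 probe sets, black diamonds for the brightest of each gene; filled symbols had an adjusted p under 0.05 over 45101 probe sets. The diamonds of Dnmt1, Uhrf1 and Ehmt2 are open here and filled in the plot of the 18194-gene fit, a separate fit with its own adjustment.

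Genes that work with the members were taken as lists and described by counts. Of all genes, 9.91% were called on day 1.5, 23.4% on day 3 and 32.5% on day 6. Of 17 measured partners and readers of DNA methylation, 6 rose and 2 fell on day 6, with a median log2 difference of 0.11 beside -0.0013 over all genes. Smug1, a uracil glycosylase, rose by 0.78 (adjusted p = 0.00029) and Gadd45b, a stress gene tied to demethylation, by 0.70 (adjusted p = 3.4e-05). Dppa3, which shields methylation marks in the zygote and holds Uhrf1 off chromatin, fell by 0.64 on day 3 and by 0.62 on day 6 (adjusted p = 0.00042). On day 1.5, before any member was called, Prdm14, a repressor of Dnmt3b in naive stem cells, was lower by -0.65 (adjusted p = 0.0010). Hells, a remodeler needed for methylation of repeats, was bright and not called on day 1.5 (0.012) or day 3 (0.12), but it passed the threshold on day 6. Usp7, a partner of Dnmt1 and Uhrf1, was the brightest of the list not called on day 6 (0.074).

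Of 22 measured partners and readers of H3K9 methylation, 6 rose and 2 fell on day 6 (median 0.11), when 32.5% of all genes were called. Atf7ip, which stabilises Setdb1, rose by 0.46 (adjusted p = 0.0027), opposite to Setdb1 itself. Trim28, which recruits Setdb1 through zinc finger proteins, was bright and not called (0.099, adjusted p = 0.13). Wiz, a partner of Ehmt1 and Ehmt2, was higher on day 3 by 0.29 (adjusted p = 0.037). The H3K9 methyltransferase genes Mecom (1.01) and Prdm16 (0.62) rose on day 6 from low intensities, with means of 30.9 and 54.1 over all arrays.

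Among 11 H3K9 demethylases 2 rose and 3 fell on day 6, when 32.5% of all genes were called. Kdm3a, which removes the marks that Ehmt1 and Ehmt2 set, rose by 0.53 on day 3 (adjusted p = 8.0e-05) and by 0.33 on day 6 (adjusted p = 0.00073). Kdm7a fell by 0.62 and 0.43 on the same days and the dim Phf2 by 0.43 and 0.32. On day 3, when 13.3% of all genes were higher and 10.0% lower, the partners of DNA methylation had 4 higher and 1 lower. Those of H3K9 methylation had 5 and 1, and the demethylases 1 and 2. Against the controls of days 1.5 and 6 the counts of the 3 lists became 3 and 3, 1 and 2, and 0 and 3, an alternative chosen after seeing the data. With 0 demethylases higher there, Kdm3a was not called higher on day 3 against those controls.

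Genes of the germline whose promoters are methylated in somatic cells, a class known to be silenced by Dnmt and Ehmt enzymes, had the highest median difference of the 7 lists on day 6. The lists were chosen with earlier results of these data known, so this rank is a description and no test. Of the 16 germline genes measured, 12 rose and 0 fell (17.2% and 15.3% of all genes), with a median of 1.56. Their summed intensity went from 3843 to 3964 in controls to 12540 to 12660 in knockout cells. Slc25a31, a mitochondrial carrier of the testis, rose by 3.24 (adjusted p = 4.5e-08), Sycp1, a protein of the synaptonemal complex, by 3.14 (adjusted p = 2.6e-07) and Taf7l by 2.57 (adjusted p = 2.2e-06). Asz1 (-0.15) was not called. On day 1.5 the list had 0 higher and 2 lower, Syce1 and Tex19.1. On day 3 it had 10 higher and 1 lower, and against the controls of days 1.5 and 6 it had 6 higher and 0 lower (medians 0.51 and 0.19). Methylation was not measured, and the part of the members in these values was not tested.

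Lists for cell state and cell cycle were read because several members are known to vary with both. For comparison, 9.91% of all genes were called on day 1.5, 23.4% on day 3 and 32.5% on day 6. Of 12 naive pluripotency genes 4 rose and 1 fell on day 6, with Nr5a2 at 0.58, Tbx3 at 0.53 and Klf4 at -0.44, and Zfp42 was not called. Of 11 primed epiblast genes, a state in which Dnmt3a and Dnmt3b are known to be high, 4 rose and 2 fell on day 6 (median -0.0025). On day 1.5, 5 of them fell and 1 rose, among them Otx2 (-0.84) and Pou3f1 (-0.83), and on day 3, 6 rose and 0 fell (3 and 1 against the other controls). Of 19 S phase genes, which vary with replication as Dnmt1 and Uhrf1 do, 5 rose and 3 fell on day 6, with Gins2 at 0.38, Ccne1 at -0.38 and Pcna not called (0.091). The part of these genes in the values of the members was not tested.

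**Figure D5:**
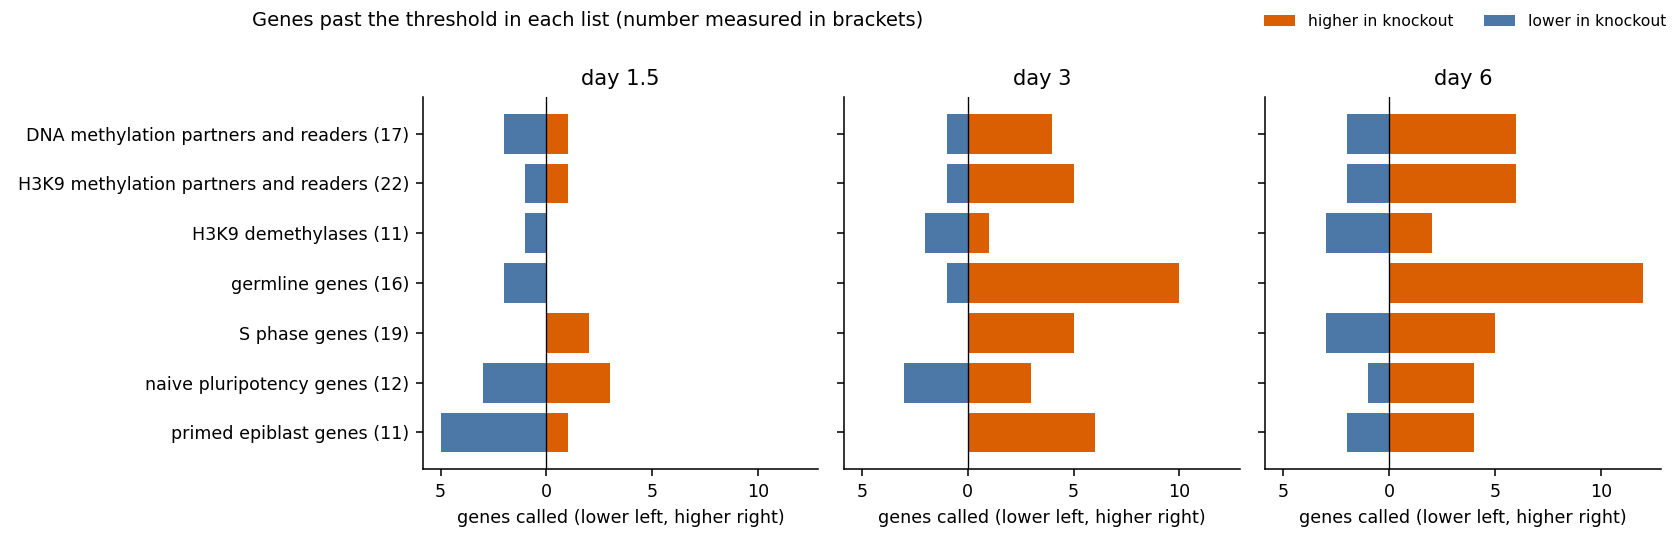
Number of genes past the threshold (horizontal axis; higher in knockout cells to the right, lower to the left) in each list on each day, with the number measured in brackets. The germline list has 12 genes to the right and 0 to the left on day 6, beside 17.2% and 15.3% of all genes.

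The genes most like each member in log2 intensity over the 12 arrays were found by Pearson r, as a description over samples that share groups and days. For Dnmt3l these were Slc38a10 (0.988), Rnf2 (0.985), Ap4b1 (0.982), Zfp36l1 (0.981) and Pla2g7 (0.980). The nearest to Dnmt3a was Timm13 (0.985), to Dnmt3b Angptl4 (0.973), to Setdb1 Bmp4 (0.987), to Tet2 Becn1 (0.983) and to Ehmt2 Nt5c (0.976). Uhrf1 was nearest to Scd2 (0.956), Dnmt1 to Tspan14 (0.941), Ehmt1 to Lpcat1 (0.927) and Tet1 to Bend7 (0.904). Among the members themselves, Dnmt1 and Dnmt3a ran most against each other (-0.797).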

How the data were processed

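Members and lists were chosen with earlier results of these data known. The arrays were Affymetrix expression arrays of the mouse. The authors deposited intensities on a linear scale; the submitters' processing notes name RMA (background correction, a common distribution and a summary per probe set) without a version. Values ran from 5.511 to 34993. The platform annotation gave 1 symbol to 34958 of 45101 probe sets, several to 932 and none to 9211. The log2 of the intensity was tested with limma 3.58.1 (R 4.3.3). All 12 arrays were fitted as 6 group means, eBayes had 6 residual and 3.04 prior degrees of freedom, and p-values had Benjamini-Hochberg adjustment over 18194 genes, each by its brightest probe set, called at 0.05. A second fit took all probe sets. The script was tested on simulated data. Alternatives were a replicate block, only the arrays compared, trend and robust eBayes, array weights, the dimmest 40% of genes left out, other choices of probe set, median centring, quantile normalization, leaving out each array, and other controls for day 3. Named genes were all members and, from each list and day, the 3 called genes with the largest differences and the brightest gene not called; the text gives a part of these. A few list genes had no probe set under their symbol and were not analysed here. Promoter letters are RefSeq's on GRCm38.p6. Plots were drawn with matplotlib 3.10.9. Precision is limited by 2 arrays a group. Scan dates and detection calls were not used here.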

Additional observations from a re-analysis of the deposited data

Results flagged for a closer look

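The effect of the knockout differed between days for 4 members by the interaction contrast in limma, each read by its brightest probe set. For Dnmt3a the effect changed by -0.63 from day 3 to day 6 and by -0.51 from day 1.5 to day 6 on the log2 scale. For Dnmt3b the changes were -0.47 and -0.29, and for Ehmt2 they were -0.38 and -0.29. Averaged over its probe sets, those of Ehmt2 were -0.011 and -0.017, and the second lost its call under 10 of 21 alternatives. For Dnmt3l the effect rose by 0.60 from day 1.5 to day 3 and by 0.49 from day 1.5 to day 6. The contrasts with day 3 use the control arrays of that day, which stood apart from the other controls. The contrasts of days 1.5 and 6 use them only for the shared estimate of the spread.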

How the results depend on the processing

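Over the alternatives run, the day 6 calls of Dnmt3a, Dnmt3b, Dnmt3l and Setdb1 held in all 21, with log2 differences from -0.49 to -0.29, -0.39 to -0.27, 0.34 to 0.41 and -0.37 to -0.26. Leaving out 1 array in turn gave 4 to 7 of 10 members called on day 6 (4 without replicate 1 of the controls or without either knockout array of that day), 1 to 4 on day 3 (1 without replicate 2 of the knockout cells), 2 to 4 for the change of effect from day 1.5 to day 6, 3 to 5 between days 3 and 6 in controls (3 without replicate 2 of day 3 or replicate 1 of day 6) and 0 to 1 between days 1.5 and 6 in controls. Replicate differences of 15 pairs of groups correlated between -0.057 and 0.17, with 1 over 0.1, that of the controls of days 1.5 and 3. Such weak values give no sign of pairing by replicate number, but they cannot show that there was none. The replicate block gave 0 members between days 1.5 and 6 in controls. With only the arrays compared, counts were 1 on day 3, and in controls 3 (days 1.5 and 3), 2 (days 3 and 6) and 0 (days 1.5 and 6). The trend and robust setting gave 1 on day 1.5, 6 on day 3, 2 and 5 for the changes of effect to day 3 and from day 3 to day 6, and 5 between days 1.5 and 3 in knockout cells. Without the dimmest 40% of genes the last 4 of these were also 6, 2, 5 and 5, and median centring gave 5 for the last. The share of all genes called can move with the setting too and is not set beside the counts of this section. These counts therefore do not single out the members. The mean of all probe sets gave 3 and 3 for controls to and from day 3 and 1 between days 1.5 and 3 in knockout cells. It also turned the sign of Ehmt2 (0.015 on day 6, and in controls 0.021 to day 3 and -0.19 from day 3 to day 6), Dnmt3a (controls, day 3 to day 6, -0.073) and Setdb1 (knockout cells, day 3 to day 6, -0.28). That mean gives dim probe sets the weight of bright ones, and whether this turned the signs was not tested. Against the controls of days 1.5 and 6, the day 3 differences of Dnmt3l (-0.33), Tet2 (-0.16) and Ehmt2 (-0.042) had the other sign, as had Dnmt3a (-0.099) and Dnmt1 (0.082), which were called against neither set of controls. The cause of these and the other changes was not tested. Of the genes called in controls, 33.4% were higher on day 3 than on day 1.5 (22.5% with median centring, 44.8% with quantile normalization) and 70.9% on day 6 than on day 3 (83.4% and 59.0%). In knockout cells the same shares were 33.8% (15.4% and 43.8%) and 61.3% (75.5% and 54.3%). Of the members' values over these alternatives, 112 lost a call, 64 gained one and 8 turned in sign with a call under at least 1 of the settings compared; the other 2346 kept their side of the threshold, and some of those never called changed sign. On day 3 the counts of the gene lists also moved against the other controls. Low signal limits the dim probe sets of Setdb1 and Ehmt2.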
